A study of Homo sapiens with 16 samples.

Results

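The chromatin around MYC was described from the ATAC-seq peaks whose summit lies on chromosome 8 between 126700000 and 129500000 (GRCh38), a window of 2.8 Mb. The rule uses position alone, and it took 591 of the 477967 peaks in the 4 deposited lists. The ancestral lists hold 133 (soft gel) and 136 (stiff gel) of them, the selected lists 171 and 151. Merged on overlap, the 4 lists gave 214 regions in the window, of 164016 regions in all. The window holds 36 annotated genes, of which 2 are protein-coding (MYC and POU5F1B) and 23 are long non-coding RNA genes. The first and last peaks inside the window had levels of 0.333 to 7.84 list medians in the 4 lists, and the nearest ones outside it had 0.820 to 1.12.

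MYC encodes a transcription factor that pairs with MAX, binds E-box sequences and drives genes of growth, ribosome production and the cell cycle. Its own transcription depends on enhancers spread over a wide gene-poor region on both sides, many of which lie inside non-coding RNA genes. PVT1, the long non-coding RNA gene downstream of MYC, holds several of these enhancers, and its promoter is known to compete with the MYC promoter for them in breast cancer cells. The stretch upstream, with CCAT1, CASC8 and POU5F1B, holds variants associated with the risk of several cancers.

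ATAC-seq reads open chromatin with a transposase that cuts accessible DNA. The cells were MDA-MB-231, an established line from a breast adenocarcinoma, labelled wild type in every sample. The 16 samples form 4 groups of 4, from 2 populations (ancestral and selected) and 2 gels (soft and stiff). All gels were polyacrylamide with type I collagen, at 1 kPa (soft) or 308 kPa (stiff). For the selection, 20000 cells were plated and replated about every 7 days over 75 days. The labels name soft selection in the design and both stiffnesses in the protocol, so whether the selected cells on stiff gel had been selected on soft or on stiff gel was not settled here, and they are called by their label. The cells are 1 line, and each group is described by a single list.

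Each group has 1 peak list, so there is no spread between replicates, no p-value and no check against replicate error. The pileup of a peak, the number of fragments stacked at its summit, was divided by the median pileup of its list and is called its level. The list medians were 111 and 132 for ancestral cells on soft and stiff gel, and 51 and 56 for selected cells in the same order. Intervals are exact 95% intervals and cover counting error only. A more open site in each cell and more cells with an open site cannot be told apart in bulk chromatin. The weakest listed peaks reached 0.279 and 0.280 list medians in the ancestral lists but 0.529 and 0.464 in the selected lists, so a region shared by both populations can be weaker in the ancestral lists than any peak of the selected lists. Marker genes were checked for an end peak, a listed peak at most 1 kb from either gene end, in the order ancestral then selected and soft then stiff. Of 5 mesenchymal markers 4, 4, 5 and 5 had one and 1 was undetermined in each ancestral list, with VIM at 21.0 to 27.6 list medians. Of 6 luminal markers 4, 5, 5 and 5 had one, and ESR1 had none in any list. The counts were 3, 4, 3 and 3 of 4 epithelial, 0, 1, 0 and 0 of 3 basal, and 3 of 4 fibroblast markers in each list. For other cell types they were 2, 2, 2 and 3 of 4 blood markers without PTPRC, 0, 0, 1 and 1 of 3 endothelial markers without PECAM1, and 3, 3, 2 and 2 of 3 neuron markers, with 1 blood marker undetermined on soft gel and 1 neuron marker on each gel in selected cells. A listed peak at a marker shows open chromatin and not expression, and these counts do not separate the cell types.

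Peak names carry running numbers, and a few numbers are skipped inside the window. The ancestral soft list skips 1 number in a stretch of 52.6 kb that runs from 46.5 kb before to 6.18 kb past the MYC start. The ancestral stiff list skips 1 number in nearly the same stretch, of 52.4 kb. Both stretches contain the MYC promoter, so these lists give no value for it, and the absence of a listed peak there does not mean closed chromatin. A further number is skipped inside PVT1 in 3 lists: in ancestral stiff over 18.7 kb from 104.8 kb past the MYC start, in selected soft over 12.3 kb and in selected stiff over 13.0 kb. Ancestral cells on soft gel skip none there, and their list shows a peak of 4876 bp at 119.0 kb with a pileup of 2722. In all, 8 regions met a skipped number in some list and were treated as undetermined in it. In the plot of all listed peaks by distance from MYC, grey bands mark these stretches.

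**Figure D1:**
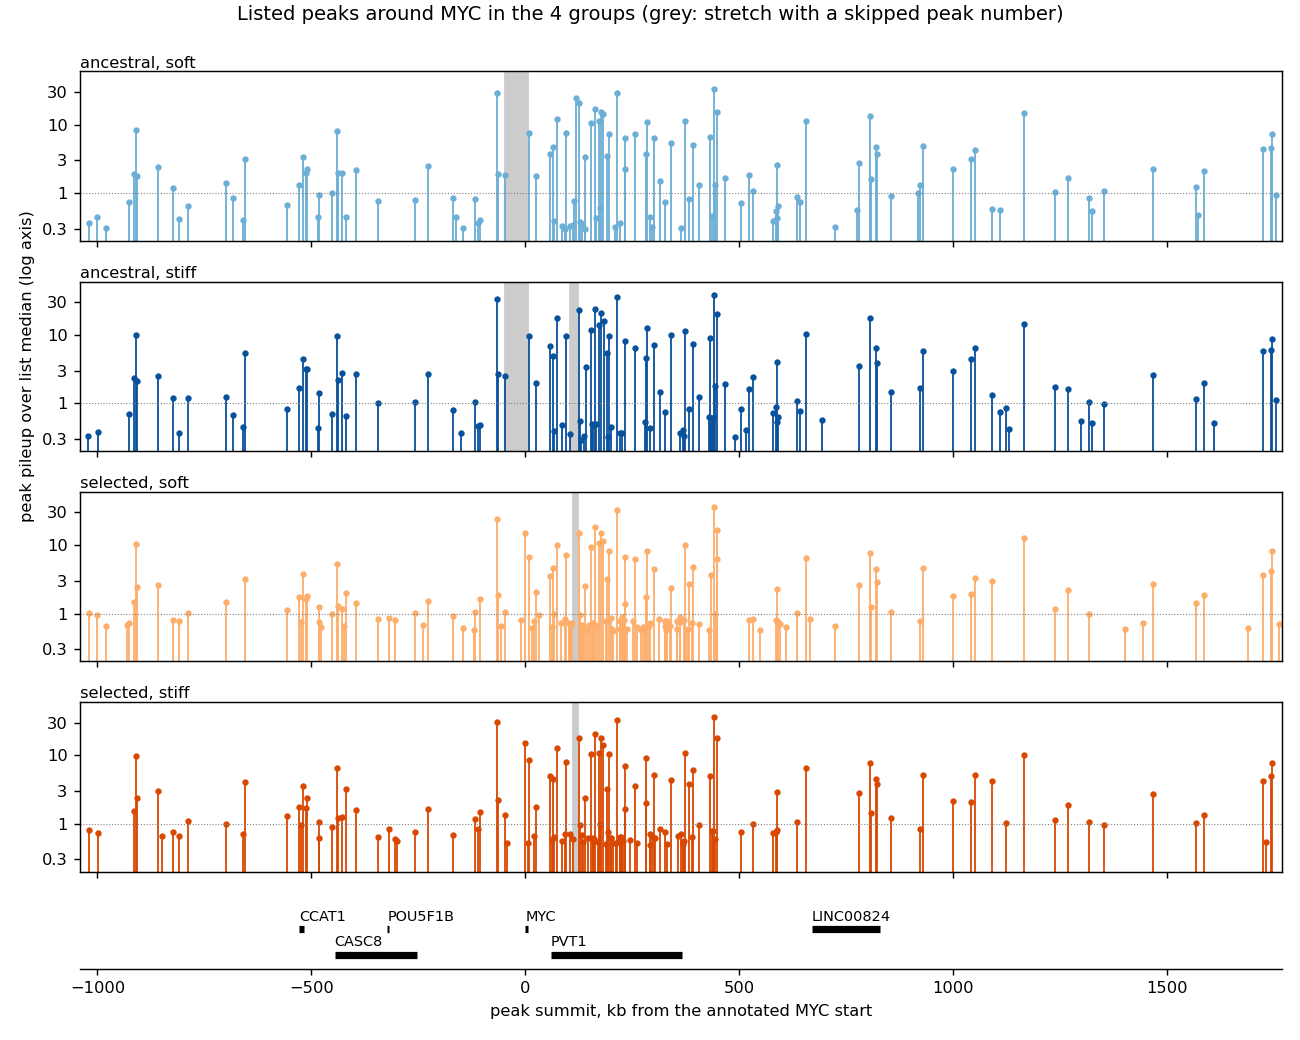
Level of each listed peak (pileup over list median, log axis) against the distance of its summit from the annotated MYC start in kb, 1 panel per group, with grey bands where a peak number is skipped and the main genes drawn below. The tallest peaks, at -66.6, 214.4 and 441.4 kb, stand at 24.4 to 38.3 list medians in every panel, and selected soft cells show a dense row of low peaks over PVT1.

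The MYC promoter carried the widest peak of the window. In selected cells on soft gel this peak ran from 127733641 to 127740583, 6943 bp long, with a pileup of 773, a level of 15.2 and the authors' fold enrichment of 53.5. In selected cells on stiff gel it ran from 127733671 to 127740239, 6569 bp long, with a pileup of 843, a level of 15.1 and a fold enrichment of 62.0. The peak starts inside CASC11, a long non-coding RNA gene that ends at 127733967, covers the MYC start at 127735434 and stops short of the MYC end at 127742951. Its strongest point in the merged region lay 0.028 kb before the MYC start. The log2 ratio of soft over stiff gel in selected cells was 0.01 (95% interval -0.13 to 0.15) by level and -0.21 by fold enrichment. No comparison of selected with ancestral cells was possible at the MYC promoter.

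Another peak lay 0.298 kb past the annotated end of MYC and was listed in all 4 groups. Its pileup was 828 in ancestral cells on soft gel, 1263 in ancestral cells on stiff gel, 337 in selected cells on soft gel and 476 in selected cells on stiff gel. Its levels were 7.46, 9.57, 6.61 and 8.50 in the same order, and its widths stayed between 2145 and 2368 bp. The level was lower on soft gel in both populations, with log2 ratios of -0.36 in ancestral cells (95% interval -0.49 to -0.23) and -0.36 in selected cells (-0.57 to -0.16). Selected over ancestral it was -0.17 on both gels. In selected cells the promoter stood 2.29 times above this 3′ peak on soft gel and 1.77 times on stiff gel.

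The promoter of PVT1, 59.09 kb past the MYC start, had an open region in all 4 groups. Its pileup was 412 and 917 in ancestral cells on soft and stiff gel, and 180 and 283 in selected cells. The levels were 3.71, 6.95, 3.53 and 5.05 in the same order, so it was lower on soft gel in both populations. The log2 ratio of soft over stiff was -0.90 in ancestral cells (95% interval -1.08 to -0.73) and -0.52 in selected cells (-0.80 to -0.24). Selected over ancestral, it was -0.07 on soft gel (-0.33 to 0.18) and -0.46 on stiff gel (-0.66 to -0.27). The peak was wider on soft than on stiff gel, at 3615 against 3043 bp in ancestral cells and 4018 against 2937 bp in selected cells. The PVT1 promoter stood well below the MYC promoter in selected cells, and 26 to 36 distal regions of each list stood above it.

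The strongest listed regions of the window were distal, and in the ancestral lists the MYC promoter has no value to set beside them. In selected cells 5 distal regions on soft gel and 7 on stiff gel had a level above the MYC promoter. The strongest region (chr8:128174950-128178225) lay 441.4 kb past the MYC start, inside the non-coding RNA gene LOC124902020. Its levels were 32.8 and 38.3 in ancestral cells on soft and stiff gel and 35.8 and 36.7 in selected cells, from pileups of 3643, 5058, 1825 and 2056. The next, at 214.4 kb inside PVT1 (chr8:127947867-127951618), reached 29.4, 35.5, 33.1 and 33.3. The third, at -66.6 kb inside LOC105375754 (chr8:127667969-127670011), reached 29.2, 33.5, 24.4 and 30.2. Each of these 3 regions had a level of at least 24.4 in every list, and by level none of their ratios in the 4 comparisons reached 1.5-fold. By fold enrichment all 3 were lower in selected cells by more than 1.5-fold, with log2 ratios of -0.74, -0.69 and -1.12 on soft gel and -0.66, -0.69 and -0.75 on stiff gel, in the same order of regions.

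Inside PVT1, a row of further strong regions was listed in all 4 groups. The region at 124.5 kb had levels of 20.5, 23.1, 15.02 and 17.6, and the one at 164.1 kb 16.8, 24.2, 18.3 and 20.7. At 176.1 kb the levels were 15.5, 20.6, 14.98 and 17.7, and at 183.2 kb 14.1, 16.1, 11.6 and 14.4. The region at 448.0 kb, past PVT1, had 15.5, 19.9, 16.6 and 18.1. In each of these 5 regions the soft value lay below the stiff value within the same population. Of all regions of at least 5 list medians on both gels, 92.15% in ancestral and 82.5% in selected cells were lower on soft gel. Scaled by the regions listed in all 4 groups, these shares were 52.4% and 72.4%. At the skipped numbers inside PVT1, the peak at 119.0 kb that only the ancestral soft list shows had a level of 24.5, the fourth highest of that list in the window. Of the 99 regions of the window listed in all 4 groups, 11 reached 10 list medians in every list, beside 7.83% of all such regions. Above 1 list median in every list stood 63, for which no share over all regions is given here.

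**Figure D2:**
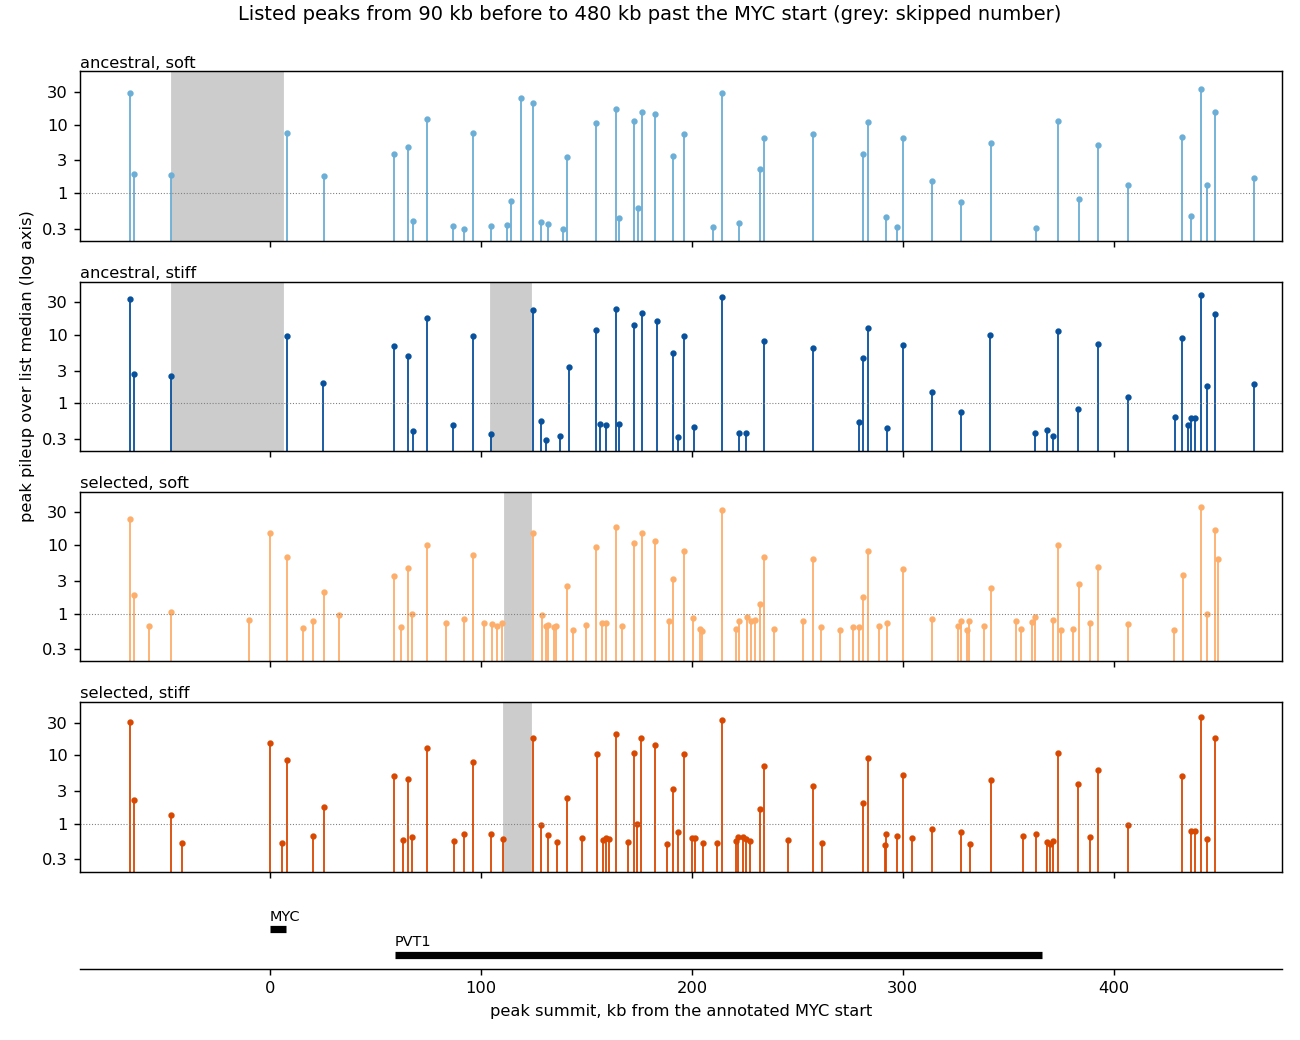
Level of each listed peak (pileup over list median, log axis) from 90 kb before to 480 kb past the annotated MYC start, 1 panel per group, with grey bands where a peak number is skipped. The promoter peak at 0 kb appears in the selected panels at 15.2 and 15.1 and falls in the grey band of the ancestral panels, and the peak at 119.0 kb appears in the ancestral soft panel alone, with grey bands there in the other panels.

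Selected and ancestral cells on soft gel were compared to ask how the 2 populations differ at the locus on the soft substrate. Most of the strong regions were shared, and the peaks of 1 list alone were weak. Of the 171 selected peaks, 62 (36.3%, 95% interval 29.1 to 43.9) overlapped no ancestral peak, 2 of them at a skipped number, beside 35.8% of the whole list. Of the 133 ancestral peaks, 21 (15.8%, 10.1 to 23.1) overlapped no selected peak, 3 of them at a skipped number, beside 21.7% of the whole list. The unshared selected peaks had a median level of 0.667 and a highest level of 0.961, the latter 32.7 kb past the MYC start, against a median of 1.80 in the shared ones. Their median width was 489.5 bp against 1090 bp in shared peaks. Over the rest of chromosome 8 the unshared shares were 39.1% and 24.3%. With peaks of −log10 q of at least 10 alone, the order turned, to 8 unshared selected and 25 unshared ancestral peaks. That limit keeps 57.5% of the whole selected soft list and 78.7% of the whole ancestral soft list. Unshared shares of the whole lists at that limit are not given here.

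In the 106 regions shared on soft gel, the median log2 ratio of selected over ancestral level was -0.02, against 0.15 over all 78948 shared regions of the genome. By at least 1.5-fold, 22 of the 106 were higher in selected cells, beside 26% of all shared regions, and 16 were lower, beside 7.94%. With both levels at or above 0.529, the highest of the weakest listed levels, 4 of 88 were higher (12.4% of all such regions) and 16 were lower (9.57%). By the deposited fold enrichment the split was 7 higher and 76 lower, and that measure shifts the median log2 ratio of selected over ancestral on soft gel by -0.86. Shares over all shared regions by that measure are not given here. Among the 24 shared regions of at least 5 list medians in both groups, 8 were higher and 16 lower in selected cells. Their median was -0.18 against -0.03 over all such regions, 55.35% of which were lower.

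On stiff gel fewer selected peaks lacked a partner. Of the 151 selected peaks, 33 (21.9%, 95% interval 15.6 to 29.3) were unshared, 4 of them at a skipped number, beside 26.8% of the whole list. Of the 136 ancestral peaks, 21 (15.4%, 9.82 to 22.6) were unshared, beside 21.7%. At a −log10 q of at least 10 this order turned as well, to 4 selected and 30 ancestral peaks. That limit keeps 63.2% of the whole selected stiff list and 81.4% of the whole ancestral stiff list. Unshared shares of the whole lists at it are not given here. In the 113 shared regions the median log2 ratio was -0.17, against -0.00 over all 84204 shared regions, a difference of -0.17 between the members and the genome, beside -0.16 on soft gel. By at least 1.5-fold, 20 were higher in selected cells (18.8% of all shared regions) and 22 were lower (11.2%). With both levels at or above 0.529, 6 of 94 were higher (6.99%) and 22 lower (13.4%). By fold enrichment, which shifts the log2 ratios on stiff gel by about -0.60, the split was 6 higher and 74 lower. No share over all shared regions is given for that measure. Of the 28 regions with at least 5 list medians in both groups, 27 were lower and 1 was higher in selected cells, with a median of -0.22 against -0.10 over all such regions, 66.9% of which were lower. Scaled by the regions listed in all 4 groups, which raises the ratios on stiff gel by 0.17, the split was 19 lower and 9 higher, beside 39.3% lower. The peaks narrowed slightly on stiff gel, with a median width ratio of 0.917 in the window and 0.921 over all shared regions.

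The comparisons of selected with ancestral cells on the 2 gels use separate lists, so their values can be set side by side. Of the 99 regions listed in all 4 groups, 16 were at least 1.5-fold higher in selected cells on both gels and 13 were at least 1.5-fold lower on both. Over all 71596 such regions of the genome the shares were 13% and 5.45%. Of the 16 higher regions, 3 had ancestral levels at or above 0.529 on both gels. By fold enrichment, which lowers all these ratios, 5 of the 16 stayed past 1.5-fold and 12 kept their direction. Scaled by the regions listed in all 4 groups, 16 of the 16 higher and 11 of the 13 lower regions stayed past it. In the plots of selected against ancestral level, the lower regions spread over strong and weak levels and most of the higher ones sit at the weak end.

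**Figure D3:**
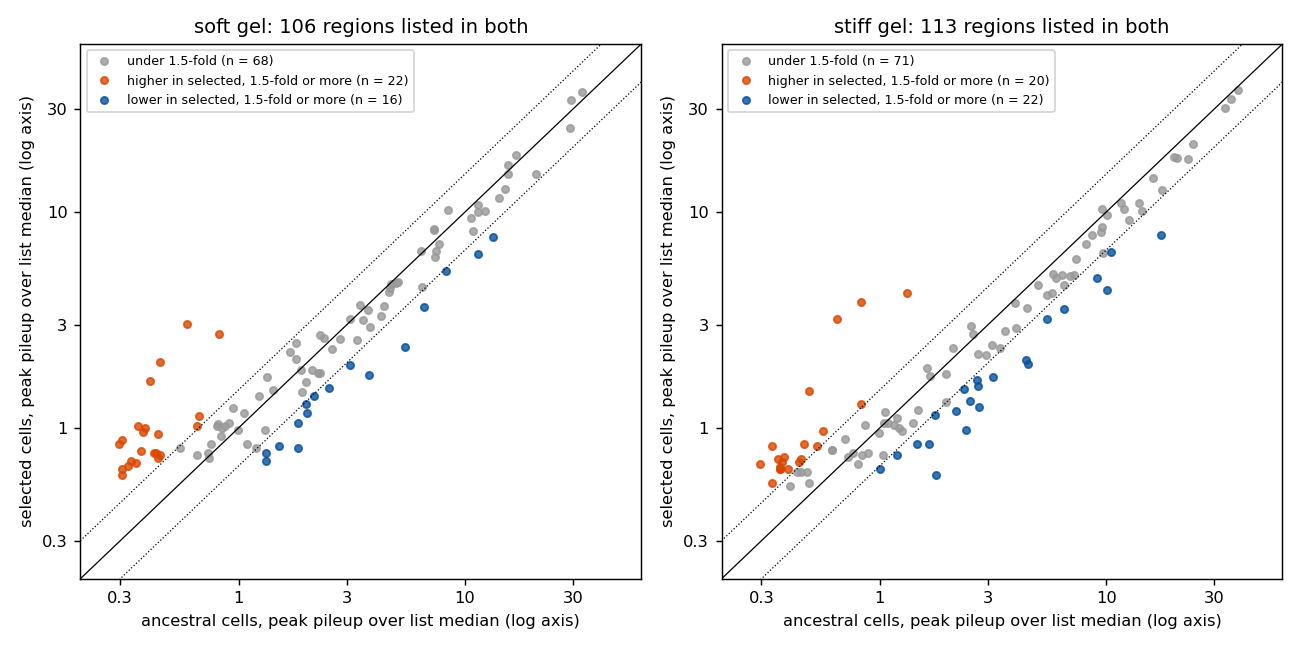
Level in selected cells against level in ancestral cells (pileup over list median, log axes) for each region listed in both groups, on soft gel (106 regions) and stiff gel (113 regions), with the line of equal level and dotted lines at 1.5-fold. The 22 and 20 higher regions sit mostly below 1 ancestral list median, and the 16 and 22 lower regions reach above 10.

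Among the 3 higher regions with ancestral levels of at least 0.529 on both gels, the largest gains lay far from MYC and not at a promoter. At 1090 kb (chr8:128825045-128827147), between non-coding RNA genes, the levels were 0.59 and 1.32 in ancestral cells on soft and stiff gel and 3.04 and 4.21 in selected cells. Selected over ancestral, the fold was 5.11 on soft gel and 3.20 on stiff gel. At 383.3 kb, 17.5 kb past the end of PVT1 (chr8:128117532-128120086), the levels were 0.82, 0.83, 2.73 and 3.84, and the peak widened from 1014 and 974 bp to 2383 and 2250 bp. The fold was 3.32 on soft gel and 4.65 on stiff gel. Both regions were picked as higher on both gels, and both stayed past 1.5-fold by fold enrichment on each gel.

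Gains of similar size stood upstream of MYC, from weaker ancestral levels. At -418.5 kb, inside the overlapping non-coding RNA genes CASC21 and CASC8 (chr8:127315697-127317834), the levels were 0.45 and 0.64 in ancestral cells and 2.02 and 3.18 in selected cells, a fold of 4.48 on soft gel and 4.94 on stiff gel. At -105.1 kb (chr8:127629829-127630785), between genes, they were 0.41 and 0.48 against 1.65 and 1.48, a fold of 4.06 and 3.06. In both regions at least 1 ancestral value lay below 0.529, and both stayed past 1.5-fold by fold enrichment.

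The regions with the largest loss on both gels lay in the distal part of PVT1. At 341.5 kb (chr8:128075729-128078284) the pileups were 601 and 1325 in ancestral cells and 121 and 244 in selected cells. The levels were 5.41, 10.04, 2.37 and 4.36, with log2 ratios of selected over ancestral of -1.19 (95% interval -1.48 to -0.91) on soft gel and -1.20 (-1.41 to -1.01) on stiff gel. At 281.2 kb (chr8:128015737-128017388) the levels were 3.77, 4.52, 1.76 and 1.98, with log2 ratios of -1.09 and -1.19. Both regions were picked as lower on both gels. Both stayed past 1.5-fold by fold enrichment and when scaled by the regions listed in all 4 groups.

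Past PVT1, 3 strong regions were lower on both gels. Scaled by the regions listed in all 4 groups, the one at 655.8 kb fell short of 1.5-fold on stiff gel, with a log2 ratio of -0.52. The others stayed past it on both gels. At 806.7 kb, inside the non-coding RNA gene LINC00824, the levels were 13.2, 17.4, 7.67 and 7.84. At 655.8 kb they were 11.4, 10.5, 6.41 and 6.50, and at 432.6 kb, inside LOC124902020, 6.60, 9.13, 3.65 and 4.93. The last lies next to the strongest region of the window, at 441.4 kb, whose log2 ratios of selected over ancestral were 0.12 and -0.06.

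Neighbouring regions also differed upstream, in CASC21 and CASC8. Around the higher region at -418.5 kb, 3 neighbours were lower in selected cells on both gels. They lie at -437.7 kb, with levels of 1.98, 2.17, 1.29 and 1.20, at -427.6 kb, with 2.00, 2.73, 1.18 and 1.25, and at -395.2 kb, with 2.15, 2.70, 1.41 and 1.57. The region at -47.1 kb, at the edge of the skipped stretch of the ancestral lists, was also lower on both gels, at 1.84, 2.51, 1.06 and 1.34.

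**Figure D4:**
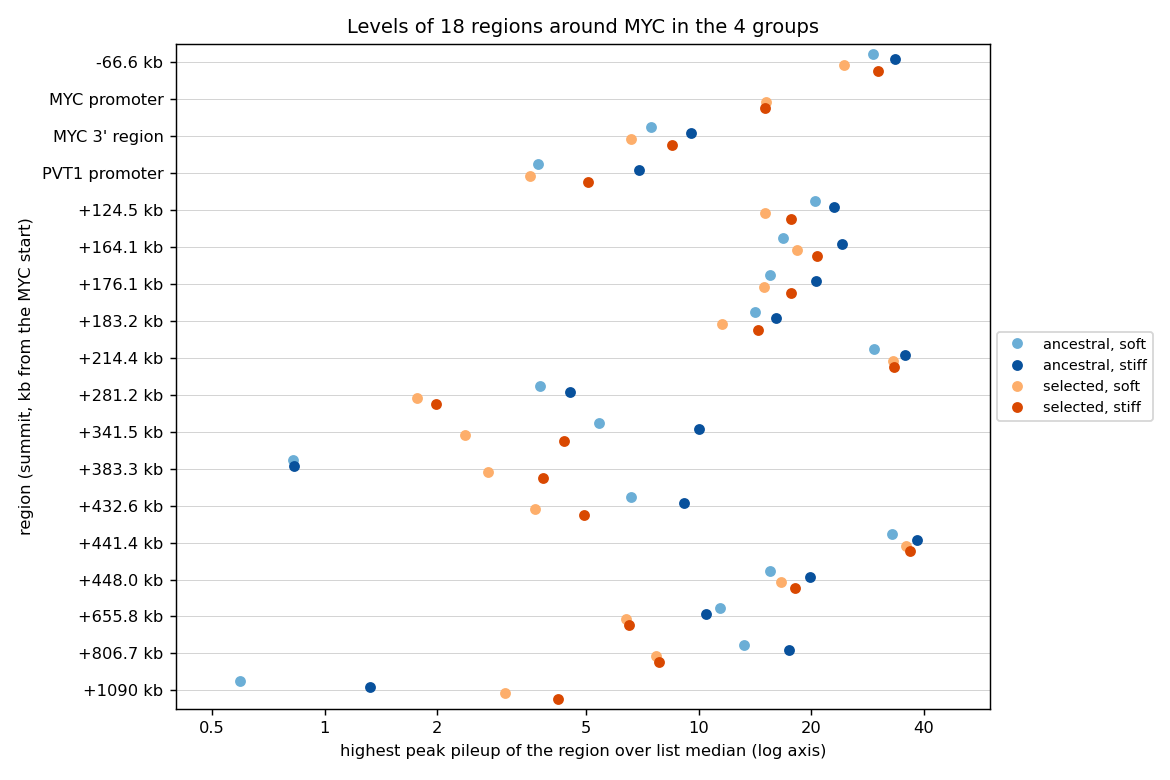
Highest pileup of a region over list median (log axis) in the 4 groups for the promoters, the MYC 3′ region and 15 distal regions, ordered by position from -66.6 to 1090 kb from the MYC start. The regions at 383.3 and 1090 kb have their selected points to the right of the ancestral ones, those at 281.2, 341.5 and 806.7 kb to the left, and the strongest regions have all 4 points close together.

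Soft and stiff gel were compared in ancestral cells to describe the response to the substrate before selection. Of the 133 peaks on soft gel, 14 (10.5%, 95% interval 5.88 to 17.0) had no partner on stiff gel, 3 of them at a skipped number, beside 10.3% of the whole list. Of the 136 on stiff gel, 21 (15.4%, 9.82 to 22.6) had none on soft gel, beside 16.8%. In the 115 shared regions the median log2 ratio of soft over stiff was -0.27, against -0.19 over all 91389 shared regions. None was higher on soft gel by 1.5-fold (1.19% of all shared regions) and 14 were lower (8.87%). The largest differences were at 1090 kb (log2 ratio -1.15), at 532.1 kb (-1.14), at 579.4 kb (-0.91) and at the PVT1 promoter (-0.90). Scaled by the regions listed in all 4 groups, the ratios were 0.22 higher, and 1 region was higher and 7 were lower. By fold enrichment the median was -0.22, with 0 regions higher and 11 lower. Shares over all shared regions under these scalings are not given here.

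The gels were compared in the same way in selected cells. Of the 171 peaks on soft gel, 48 (28.1%, 95% interval 21.5 to 35.4) had no partner on stiff gel, beside 21.9% of the whole list. Of the 151 on stiff gel, 24 (15.9%, 10.5 to 22.7) had none on soft gel, beside 15.1%. In the 118 shared regions the median log2 ratio was -0.02, against 0.03 over all 94976 shared regions. By fold enrichment, with a median of -0.25, 1 was at least 1.5-fold higher on soft gel and 11 were lower, without shares over all shared regions given here. By level, 4 were at least 1.5-fold higher on soft gel (3.95% of all shared regions) and 3 were lower (3.76%). The 3 lower regions were those at 341.5 kb (log2 ratio -0.88), -418.5 kb (-0.65) and 1052 kb (-0.62). The highest ratio was that at 257.6 kb inside PVT1, at 0.81 (95% interval 0.55 to 1.08), with levels of 7.37 and 6.49 in ancestral cells and 6.22 and 3.54 in selected cells. Among the 99 regions in all 4 lists, soft was below stiff in 81 in ancestral cells and in 66 in selected cells. The share over all such regions of the genome is not given here. Over all shared regions of the genome the log2 ratio had quartiles of -0.37 and 0.0071 in ancestral cells. In selected cells the quartiles were -0.18 and 0.25. Scaled by the regions listed in all 4 groups, the ratios were 0.22 and 0.052 higher in ancestral and selected cells. Whether the gel difference itself differed between the populations was not tested.

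By presence, 99 of the 214 regions (46.3%, 95% interval 39.4 to 53.2) were listed in all 4 groups, beside 43.7% of all regions. The selected soft list alone held 40 (18.7%, 13.7 to 24.6), beside 13.1%, and both selected lists, without the ancestral ones, held 14 (6.54%, 3.62 to 10.7), beside 9.72%. Both ancestral lists, without the selected ones, held 6 (2.80%), beside 6.39%. With peaks of −log10 q of at least 10 alone, this order turned, to 2 regions in both selected lists and 14 in both ancestral lists. The share of peaks at that q was 79.0% and 86.8% of the members in the ancestral lists, beside 78.7% and 81.4% of the whole lists. In the selected lists it was 51.5% and 62.3%, beside 57.5% and 63.2%. Shares over all regions of the genome at that limit are not given here. Regions found in a single list had a median level of 0.588 without undetermined ones, and those found in all 4 had 2.96.

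Of the regions that ancestral cells showed on both gels and selected cells on none, the strongest lay at 466.6 kb (chr8:128201637-128202179), with levels of 1.68 and 1.89. Next came those at 1755 kb inside CCDC26, a non-coding RNA gene near a blood-cell enhancer cluster of MYC, with 0.94 and 1.12, and at -682.7 kb near the non-coding RNA gene PCAT2, with 0.86 and 0.68. In both selected lists and in neither ancestral list, the strongest determined region lay at -319.4 kb, at POU5F1B, a gene close in sequence to the stem cell factor POU5F1, with 0.86 and 0.84. The region at -524.9 kb inside CCAT1, a non-coding RNA gene named for colon cancer, had 0.75 and 0.95. At 20.3 kb past the MYC start a region had 0.76 and 0.66. All of these selected values lay below 1 list median.

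The weak peaks of the selected lists were dense inside PVT1. Of the 78 regions in the PVT1 body, 28 were in all 4 lists, 36 in selected lists alone and 3 in ancestral lists alone, and 5 were undetermined. Past PVT1, over 1399 kb against 306.7 kb, the counts were 35, 13 and 15 of 75. In PVT1, 35 of 65 selected soft peaks (53.8%, 95% interval 41.0 to 66.3) had no ancestral soft partner, beside 35.8% of the whole list, and 21 of 57 selected stiff peaks (36.8%, 24.5 to 50.7) had no ancestral stiff partner, beside 26.8%. The 36 regions of the selected lists had highest levels between 0.482 and 0.804, and 29 of them lay within 5 kb of a region listed in all 4 groups. Listed peaks covered 58.0 and 60.6 kb of the PVT1 body in ancestral cells on soft and stiff gel, and 92.5 and 70.2 kb in selected cells. The ancestral soft length includes the peak of 4876 bp at 119.0 kb. The other lists skip a number there, so their lengths are not complete. The weakest peak a list can hold differs between the lists, and its part in these counts was not tested. None of the selected soft peaks in PVT1 without an ancestral partner reached a −log10 q of 10.

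**Figure D5:**
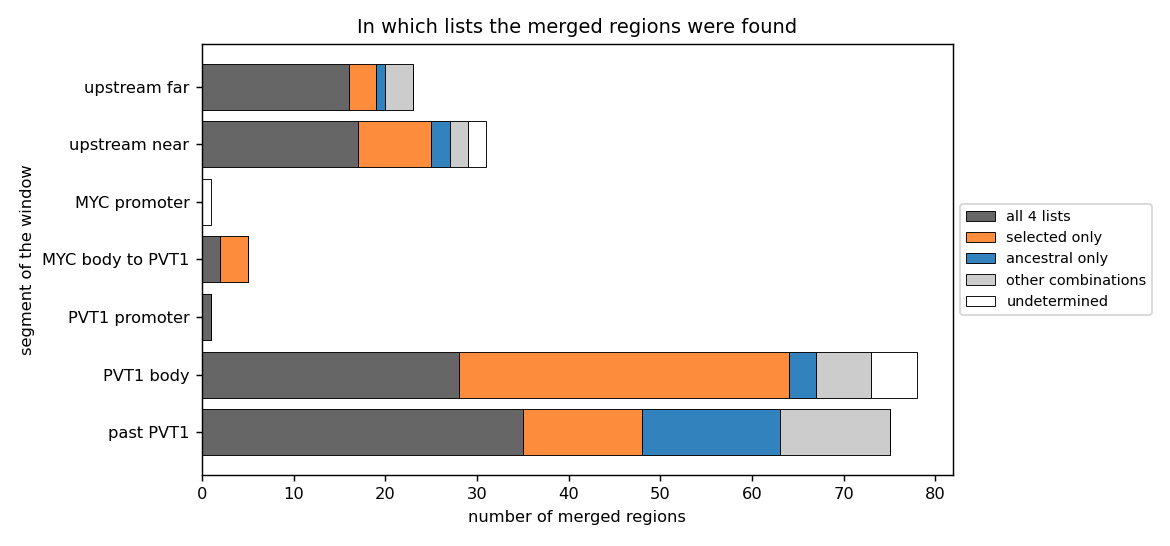
Number of merged regions by segment of the window, split by whether they were listed in all 4 groups, in selected lists only, in ancestral lists only, in other combinations, or were undetermined because of a skipped number. The PVT1 body holds 36 regions of selected lists only and 3 of ancestral lists only, and the stretch past PVT1 holds 13 and 15.

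The rest of chromosome 8 gave the surroundings of these values. Between the window and the end of the chromosome, the median log2 ratio of selected over ancestral level was 0.76 for soft gel and 0.31 for stiff gel. There, 56.5% of selected soft peaks lacked an ancestral partner. In the 2.8 Mb just before the window the medians were 0.07 and -0.14, and in the 2.8 Mb just after it 0.12 and -0.14.

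Genes that work with MYC were listed to see whether their own promoters moved with the locus. A peak within 1 kb of an annotated gene end was listed for 47, 48, 44 and 46 of the 50 genes, in the order ancestral then selected and soft then stiff, and 1, 1, 4 and 2 genes were undetermined. For MYC in ancestral cells this is the 3′ peak. The shares over 20033 protein-coding genes were 72.6%, 73.5%, 75.9% and 75.7%. MYCN, the neural paralogue of MYC, had an end peak in ancestral cells on stiff gel alone, at 0.46 list medians, and MGA, a MAX partner, had none. MAX, the obligate partner of MYC, stood at 10.5, 10.3, 12.1 and 11.8, and MXD1, a MAX partner that opposes MYC, at 37.2, 42.0, 45.5 and 47.2.

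Among network genes with an end-peak level in both lists, few differed by 1.5-fold. Genes without a level in both were left out, among them ODC1, and TERT for selected over ancestral. Both are described below. Selected over ancestral on soft gel, 0 of 35 genes were higher (8.76% of all protein-coding genes with values) and 2 were lower (6.2%). These were EP400, a chromatin remodeler that MYC recruits, from 6.96 to 2.90, and HUWE1, a ubiquitin ligase that acts on MYC, from 7.24 to 4.04. On stiff gel 1 of 36 was higher (6.31%) and 3 were lower (5.02%). The higher one was CCND2, a cyclin gene activated by MYC, which went from 0.69 to 1.16. Among the lower ones, TRRAP, a scaffold of MYC's acetyltransferases, went from 4.61 to 2.75 and HUWE1 from 8.83 to 5.54. The median log2 ratios were 0.06 and -0.02, against 0.03 and -0.04 over all genes.

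Soft over stiff gel, 5 of 37 network genes were lower and 0 were higher in ancestral cells, beside 11% and 0.21% of all genes. They included CDK9, the transcription elongation kinase gene, at 3.01 on soft and 5.84 on stiff gel. In selected cells 4 of 36 were lower and 0 higher, beside 11.7% and 1.55%. CDK9 was at 2.74 and 5.32 there, and EP400 at 2.90 and 10.9. CDK9 was thus lower on soft gel in both populations, with a log2 ratio of -0.96 in each. The medians were -0.26 and -0.18, against -0.26 and -0.15 over all genes. ODC1, whose promoter peak is described below, had no end-peak level on both gels and is not in these counts.

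The E-box CACGTG, which reads the same on both strands, was searched in the RefSeq promoters (GRCh38.p14) of these genes, from 250 bases before to 50 after each start. It was found in 15 of 58 promoters of the 40 genes matched (25.9%) and in 7.26% of all 35116 promoters. For the textbook target genes it was 9 of 19 promoters (47.4%). The promoter of ODC1, the polyamine enzyme gene and a classic MYC target, holds it 2 times. The stretch around both matches is printed because it shows the sequence that MYC with MAX binds. It lies on the minus strand at chr2:10447983-10448082, with 70 bases before the start and 30 from it on. Capitals mark CACGTG.
ODC1 promoter: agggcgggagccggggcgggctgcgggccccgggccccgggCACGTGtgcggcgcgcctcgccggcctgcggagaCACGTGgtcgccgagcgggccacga

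In all 4 lists a peak covered this stretch. The ODC1 peak had pileups of 614 and 1446 in ancestral cells on soft and stiff gel and 237 and 549 in selected cells, and widths between 2058 and 2225 bp. Its levels were 5.53, 10.95, 4.65 and 9.80, so the soft values lay below the stiff values in both populations. The log2 ratio of soft over stiff was -0.99 in ancestral cells (95% interval -1.12 to -0.85) and -1.08 in selected cells (-1.30 to -0.85). Selected over ancestral it was -0.25 on soft gel and -0.16 on stiff gel.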

How the data were processed

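ATAC-seq samples of 4 groups, 4 in each, are represented by 1 deposited peak list per group. Per the submitters' processing notes, the tools were MACS2 (2.2.7.1), Bowtie2 (2.4.5), Trimmomatic (0.36), MultiQC (1.1) and FastQC (0.11.4), on GRCh38. The sources used here do not give how the libraries of a group were joined, the caller's options or the reads per sample. Per the file headers, the authors give each peak its start, end, width, summit, pileup signal, −log10 p-value, −log10 q-value and fold enrichment. The deposited pileup holds whole numbers without scaling to depth, and of the significance columns the q-value was used. The background pileup that the deposited fold enrichment implies was 16.3 and 20.2 in the ancestral lists (soft, stiff) and 13.5 and 12.6 in the selected lists, the one measure of depth.

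Levels are pileup over list median. Peaks were shared on an overlap of at least 1 bp, lists were merged on overlap, and the highest pileup per region and list was kept. Log2 ratios carry exact conditional binomial intervals with list medians taken as fixed, and shares carry Clopper-Pearson intervals, all at 95%. A region was called on a 1.5-fold difference. A peak of another list that meets only the gap around a skipped number was undetermined. Gene positions come from RefSeq (GRCh38.p14), without strand. Regions were named by rank: promoters and the MYC body, the 8 strongest in all lists, the top 4 per direction and comparison by level or ratio, the top 4 of both populations, the 4 widest peaks and all at skipped numbers. The regions past 1.5-fold on both gels, CDK9 and ODC1 were picked with values in view. The members and the gene lists (50 MYC network genes, and marker genes) were chosen with earlier results of these data known. In simulated data from the ancestral soft list, 5000 of 5000 planted absent peaks were recovered among 109578. This checks the code only, since a removed peak cannot overlap the rest of its own list. No sequence of the locus itself is printed. 1 of the network genes past 1.5-fold is not reported here. Tools were pandas 2.3.3 and scipy 1.17.1 for tables and intervals, numpy 2.4.6, and matplotlib 3.10.9 for figures, run in python 3.11.15.

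Alternatives were fold enrichment in place of pileup, scaling by regions in all 4 lists or by chromosome 8, stricter q, the top 54789 peaks, 50% overlap, a gap of 500 bp, wider promoters and gene ends, members within 500 kb of MYC and leaving out undetermined regions. A minimum level of 0.529 in both lists was added after the data were seen.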

Additional observations from a re-analysis of the deposited data

Results flagged for a closer look

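By level, a single region of the window had opposite directions with the gel in the 2 populations, in each beyond counting error. It lies at 444.1 kb past the MYC start, inside LOC124902020, and is listed in all 4 groups with levels of 1.31 and 1.76 in ancestral cells on soft and stiff gel and 0.98 and 0.61 in selected cells. The log2 ratio of soft over stiff was -0.43 in ancestral cells (95% interval -0.74 to -0.13) and 0.69 in selected cells (0.034 to 1.36). By fold enrichment the selected value was 0.47 (-0.19 to 1.14), and scaled by the regions listed in all 4 groups the ancestral value was -0.22 (-0.53 to 0.086). Under each of these scalings 1 of the 2 values thus lay within counting error. The difference between the populations was not tested, since each group has 1 list. The stiff selected peak had a pileup of 34.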

How the results depend on the processing

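Of 153 values under alternatives, 106 stayed close to the main value, within 1.5 times for a count and within its 95% interval for a ratio or median, and 47 moved. No called value changed sign, but 3 uncalled ones did. The median over the gels in selected cells (-0.02) turned positive under 2 scalings, and the MYC promoter (0.01) turned negative by fold enrichment. By fold enrichment the median log2 ratio of shared regions was -0.87 (selected over ancestral, soft gel), -0.76 (stiff gel) and -0.25 (soft over stiff, selected). The calls higher and lower by 1.5-fold were 7 and 76, 6 and 74, and 1 and 11. The PVT1 promoter then had -0.93 and -1.05 (selected over ancestral on soft and stiff) and the MYC promoter -0.21 (soft over stiff, selected). Scaled by regions in all 4 lists, the medians were -0.0050 (selected over ancestral, stiff), -0.056 (gels, ancestral) and 0.028 (gels, selected). Then 1 region was higher and 7 were lower on soft gel in ancestral cells, with -0.69 at the PVT1 promoter. Scaled by chromosome 8, the gel medians were -0.208 (ancestral) and 0.064 (selected), with 1 lower region in selected cells. With −log10 q of at least 10, the medians were -0.40, -0.62, -0.35 and -0.14 in the order of the comparisons. Unshared peaks were then 8 for selected soft and 4 for selected stiff against ancestral cells, 5 for ancestral soft against stiff, and 6 and 12 between selected soft and stiff. The ancestral side, 25 (soft) and 30 (stiff) against selected cells, then exceeded the selected side, so the order of the main counts turned on both gels. By presence, 2 regions were then in both selected lists, 14 in both ancestral lists, 3 in selected soft, 2 in selected stiff and 5 in ancestral soft alone. In the top 54789 peaks of each list, unshared peaks were 6 and 6 for selected soft and stiff, against 14 and 14 on the ancestral side, 3 and 5 between ancestral soft and stiff, and 3 and 5 between selected soft and stiff. Within 500 kb of MYC, unshared ancestral peaks were 9 (soft) and 8 (stiff) against selected cells and 9 (soft) against stiff gel. With undetermined regions left out, 5 regions were in ancestral soft alone. With both levels at or above 0.529, 4 and 6 regions were higher in selected cells on soft and stiff gel. The cause of these shifts was not tested. Stricter limits leave fewer peaks, and the part of this in the shifts was not tested either. For the counts of this paragraph, shares over all regions under the same alternative are not given, apart from the minimum level of 0.529.

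No paired analysis was possible because each group has 1 list, and its columns carry no replicate. Leaving out a replicate was not run for the same reason. The ratio of selected over ancestral cells at the MYC promoter has no value under any alternative. Depth is known only through the background pileup.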

Other observations

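TERT, the telomerase gene and a textbook MYC target, was picked after its values were seen. Its strongest peak lies 4.27 to 4.29 kb inside the gene from its upper end on chromosome 5. The levels were 3.99 and 4.91 in ancestral cells on soft and stiff gel and 23.1 and 18.0 in selected cells, and the widths were 3235, 3844, 7829 and 7784 bp. In selected cells this peak also covered the upper gene end. There the ancestral lists hold a separate peak, at 0.54 and 0.66 list medians on soft and stiff gel. TERT was left out of the network counts of selected over ancestral end peaks. Selected over ancestral, the fold was 5.78 (95% interval 5.18 to 6.47) on soft gel and 3.67 (3.32 to 4.05) on stiff gel, from levels over list medians. By fold enrichment it was 3.17 and 2.42. The other regions within 1 Mb had median log2 ratios of 1.12 and 0.80, against 2.53 and 1.87 at TERT.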
